A study of Mus musculus with 6 samples.

Results

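Imprinted genes, which are transcribed mainly from 1 parental allele, were followed in myeloid-derived suppressor cells of the monocytic kind (M-MDSCs), taken from mice treated with a DNA demethylating drug and a histone deacetylase inhibitor. The 34 genes were taken by name, and every array probe whose gene name equals a listed member was read, dim probes included. Of these, 33 genes had at least 1 probe, 59 probes in all out of 39429 on the array (31541 gene names), and no probe carried the name Rian. By the allele known to be active, 18 genes were paternally expressed and 12 maternally expressed (11 measured). The other 4 (Grb10, Gnas, Blcap and Inpp5f) were set apart as imprinted only for some isoforms or tissues. Genes imprinted mainly in placenta were not set apart.

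The cells were sorted by flow cytometry from bone marrow or lung of C57BL/6 mice. The mock group was given as vehicle treated and 6 to 8 weeks old, with RNA from 1 to 2 mice per preparation. The treated group received azacytidine, an inhibitor of DNA methyltransferases, with entinostat, which blocks class I histone deacetylases, and its RNA came from pools of 3 to 6 mice, of unstated age. Each tissue had 3 two-colour arrays, named biological replicates in the labels, with mock RNA in Cy3 and treated RNA in Cy5 throughout. Dye and treatment cannot be told apart, and neither can tissue and slide, since each tissue lay on a slide of its own. Pools of several treated mice were set against RNA of fewer mock mice, and both groups are mixtures of sorted cells, so fewer cells of a type and less RNA per cell cannot be told apart. The labels give no dose or time of treatment.

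At an imprinted domain, DNA methylation placed in only 1 parental germ line persists through development, and the methylated and unmethylated copies of this control region switch the neighbouring genes on or off in cis. The zinc finger protein Zfp57 binds the letters TGCCGC when the CpG in them is methylated, and recruits Trim28 and DNA methyltransferases that keep the mark. Loss of the mark can therefore raise one gene of a domain and silence its neighbour, and H19 with Igf2 is the classical pair. The arrays read total transcript of both alleles, so they show the level of a gene and not which allele it came from. Several of the genes, Tspan32, Ascl2 and Phlda2 among them, are known to be imprinted mainly in placenta.

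The probes of the results that turn on single oligonucleotides are shown first, with CpG in capitals. The only probe of Sgce, epsilon-sarcoglycan, lies at chr6:4639584-4639643 on the minus strand of build mm9. Both H19 probes, which read a long non-coding RNA of fetal tissue, lie on the minus strand of chromosome 7 at chr7:149761492-149761551 and chr7:149762417-149762476, and they are shown because they differ in their readout.
Sgce probe: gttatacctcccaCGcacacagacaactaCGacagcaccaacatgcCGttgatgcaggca
H19 brighter probe: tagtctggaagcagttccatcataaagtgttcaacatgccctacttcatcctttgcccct
H19 dimmer probe: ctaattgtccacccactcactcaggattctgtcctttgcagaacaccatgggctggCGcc

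Of the 33 measured genes, 11 had no probe that passed the detection rule. To be kept, a probe needed the scanner's mark of well above background on 2 or more of the 3 arrays in mock or treated cells of either tissue. By this rule 35 of the 59 probes (59.3%) were kept, for 22 of the 33 genes, against 70.2% of all probes. The kept genes were 9 of 18 paternally expressed, 9 of 11 measured maternally expressed, and 4 of 4 isoform-dependent ones.

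The 11 genes without a kept probe were Igf2 (fetal growth factor), Peg3, Peg10, Dlk1 (a Notch-like ligand), Nnat, Nap1l5, Mkrn3, Slc38a4 and Usp29 on the paternal side, and Phlda2 and Zim1 on the maternal side. Igf2, Peg10, Nnat, Mkrn3, Usp29, Phlda2 and Zim1 were not well above background on any array in either channel. Dlk1 was so on 1 array of 3 in mock and in treated lung, Peg3 and Nap1l5 on 1 array of treated lung, and Slc38a4 on 1 array of mock bone marrow. For these genes no response can be given. Several kept genes were not well above background in mock bone marrow on any array by their brightest probe. These were H19, Meg3, Sgce, Grb10, Snrpn, Mest, Ppp1r9a and Asb4. Of these, Snrpn and Mest were not so on any mock lung array either, and Grb10 was so on 1 mock lung array.

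**Figure D1:**
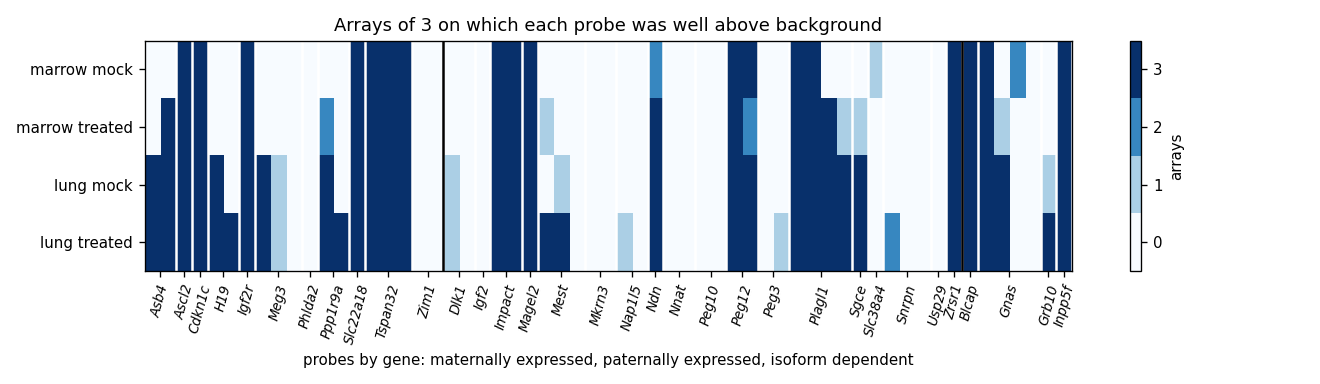
Number of arrays of 3 on which each member probe was well above background (colour, 0 to 3), for mock and treated RNA of both tissues (rows); columns are the 59 probes grouped by gene, and black lines separate maternally expressed, paternally expressed and isoform-dependent genes. Of the member probes, 18 were well above background on all 3 arrays in mock bone marrow, 20 in treated bone marrow, 28 in mock lung and 33 in treated lung.

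The effect of treatment is given as log2 of treated (Cy5) over mock (Cy3), after background correction and dye normalization, so a positive value means higher in treated cells. The headings of the deposited matrices name the opposite order, but their values correlate with Cy5 over Cy3 with r between 0.986 and 0.997 on the 6 arrays, and the dyes in the labels were followed. Each gene is represented by its brightest kept probe, and tests are limma's moderated test across all 27695 kept probes, called at a Benjamini-Hochberg adjusted p under 0.05. Values are mean ± SD of 3 arrays.

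In lung cells 14 of the 22 kept genes changed: 10 rose and 4 fell. Over all 22125 gene names tested, 20.1% rose and 14.1% fell. The median log2 ratio was 0.23 over the 22 genes and 0.01 over all gene names. Kept genes include some that passed the filter only through treated lung (Grb10, Snrpn, Mest), so the counts were also taken over all 33 genes without the filter, where again 10 rose and 4 fell, with a median of 0.13. Without the filter 9213 of all 39429 probes were called in lung in either direction, and their median was 0.001.

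The maternally expressed genes made up 6 of the 10 increases and 2 of the 4 decreases in lung. Of 9 kept, 6 rose, 2 fell and Meg3 did not pass the test, with a median log2 ratio of 0.80. The medians on the single arrays were 0.55, 0.82 and 0.65. Of the 9 kept paternally expressed genes 3 rose, 1 fell and 5 did not pass, with a median of 0.16 and single-array medians of 0.14, 0.14 and 0.20. By these brightest probes, the maternal medians lay above the paternal ones on each of the 3 lung arrays. Over all kept probes the lung medians were closer, 0.35 over 14 maternal and 0.16 over 15 paternal probes. Both class medians also moved with the processing, as given below. Without the filter the medians were 0.38 over 11 maternally and 0.07 over 18 paternally expressed genes. The maternal class includes Tspan32 and Ascl2, known to be imprinted mainly in placenta, and the allele read in these cells is not known. The difference between the classes was not tested, because genes are not replicates.

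**Figure D2:**
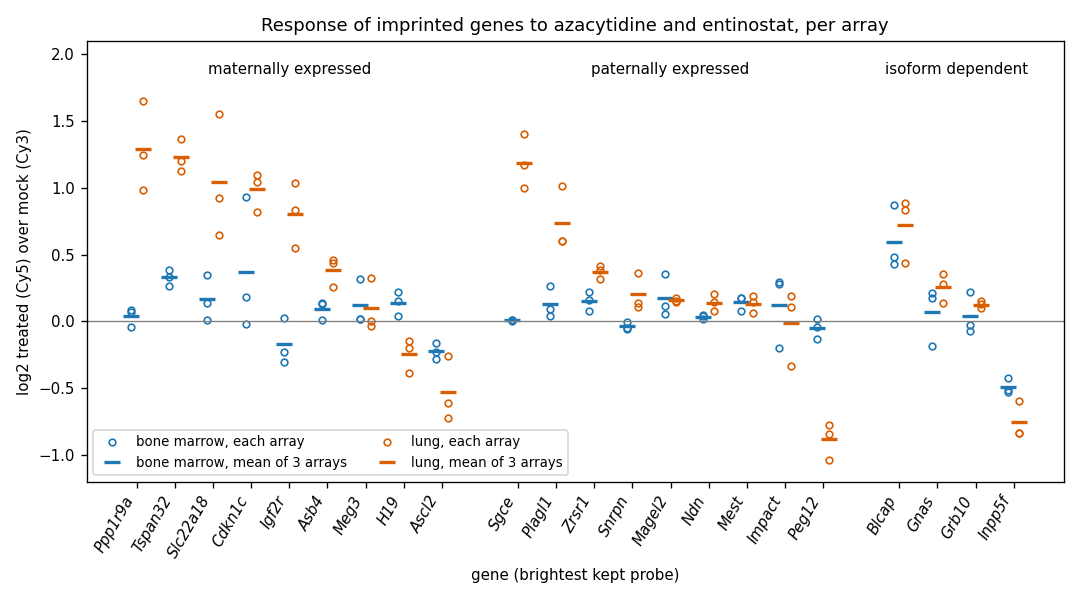
Log2 ratio of treated over mock for the brightest kept probe of the 22 genes on each array (open circles) with the mean of 3 arrays (bars), in bone marrow (blue) and lung (orange); genes are grouped by the allele known to be active. Ppp1r9a, Tspan32 and Sgce have lung means of 1.29, 1.23 and 1.19, while Peg12 and Inpp5f have lung means of -0.88 and -0.75.

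The Peg10 domain of chromosome 6 held 2 of the strongest increases. Ppp1r9a, which encodes the actin-binding protein neurabin and is maternally expressed, had log2 ratios of 1.65, 0.98 and 1.24 on the lung arrays, against 0.09, -0.04 and 0.07 in bone marrow. In mock bone marrow the probe was not well above background on any array, so the bone marrow ratios do not measure a response. Its lung mean was 1.29 ± 0.34, a 2.45-fold increase (limma, adjusted p = 0.000264). Its second kept probe was well above background only in treated lung, and its log2 ratio of 0.13 did not pass (limma, adjusted p = 0.131). The bound from its means was 1.07-fold, which takes no account of the spread of arrays.

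Sgce, epsilon-sarcoglycan, the paternally expressed neighbour of Peg10, had log2 ratios of 1.40, 1.00 and 1.17 in lung. Its lung mean of 1.19 ± 0.20, a 2.28-fold increase, had an adjusted p of 0.000105 in limma. Before dye normalization the signal minus local background was 113, 114 and 116.5 in mock lung and 620, 521 and 602.5 in treated lung. The whole treated channel was brighter on these arrays: the median spot signal was 71.6 to 80.1 in mock and 144 to 152 in treated lung. In bone marrow the same probe was well above background on 1 treated array and no mock array, so no response can be read there. Asb4, an ankyrin repeat and SOCS box protein of the same domain, rose by its brighter probe by a smaller amount, 0.38 ± 0.11 (limma, adjusted p = 0.00396). Its dimmer probe, well above background on all mock and treated lung arrays, was at 0.08 ± 0.02 and did not pass (limma, adjusted p = 0.319). Both probes of Peg10 itself were not well above background on any array, so the domain's paternally expressed retrotransposon-derived gene cannot be set beside its neighbours. Of the genes read here, this domain thus had increases of genes from both parental classes.

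The Kcnq1 domain at the distal end of chromosome 7 holds only maternally expressed members in the list, and 3 of its 4 kept genes rose in lung. Tspan32, a tetraspanin of blood cells, had log2 ratios of 1.36, 1.12 and 1.20 in lung, and its mean of 1.23 ± 0.12 was a 2.34-fold increase (limma, adjusted p = 5.51e-05). Its other two probes also rose, by means of 0.90 and 0.31, and the latter call was lost without bone marrow replicate 1 or 2 or lung replicate 1 or 2 (adjusted p 0.0556 to 0.134). Slc22a18, an organic cation transporter-like gene, spread more widely, at 1.55, 0.92 and 0.65, with a mean of 1.04 ± 0.46 (limma, adjusted p = 0.00208). Cdkn1c, the cyclin-dependent kinase inhibitor p57, was at 1.10, 0.82 and 1.04, with a mean of 0.99 ± 0.15 (limma, adjusted p = 0.00324). Every lung array was above 0 for these 3 genes. Ascl2, a basic helix-loop-helix factor of trophoblast, fell by 0.53 ± 0.24 on the log2 scale (limma, adjusted p = 0.0037). Its scanner signal minus background did not move one way before dye normalization: it was 143, 167 and 179 in mock lung and 188, 130.5 and 204 in treated lung, while the median spot signal, given above, was higher in the treated channel. The call for Ascl2 is therefore a fall relative to the other probes of the array.

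Igf2r, the mannose 6-phosphate receptor that clears Igf2, rose in lung by 0.80 ± 0.25 (limma, adjusted p = 0.00113), from values of 0.55, 0.83 and 1.04. In bone marrow it was at -0.23, -0.30 and 0.02, below every lung array. Its signal minus background was 357, 236.5 and 237 in mock lung and 908, 833 and 1037 in treated lung, on arrays whose median treated signal was also the higher.

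**Figure D3:**
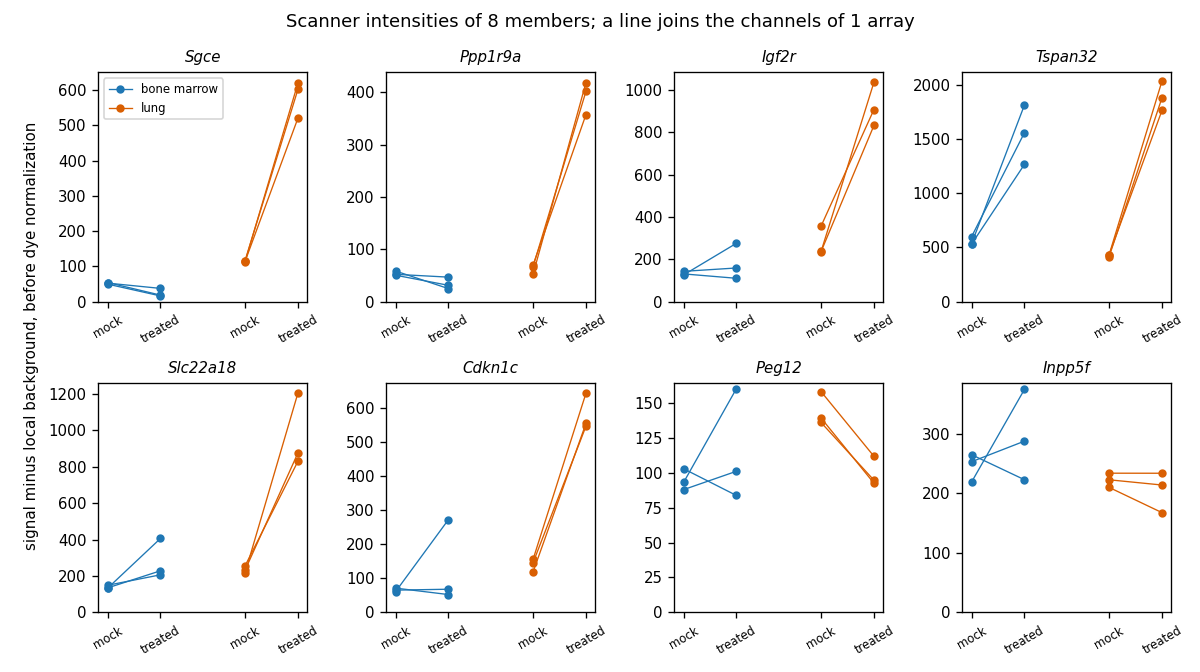
Scanner signal minus local background, before dye normalization, of 8 members in mock (Cy3) and treated (Cy5) RNA; each line joins the 2 channels of 1 array, in bone marrow (blue) and lung (orange), and each panel has its own axis from 0. Signals of Sgce rose from between 113 and 116.5 to between 521 and 620 in lung, while those of Peg12 fell from between 136 and 158 to between 92.4 and 112.

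Among the non-coding RNAs, H19 fell slightly in lung by its brighter probe and Meg3 did not pass. The brighter H19 probe, shown above, had lung ratios of -0.38, -0.20 and -0.14, a mean of -0.24 ± 0.13 (limma, adjusted p = 0.0334). The call was lost without any 1 of the lung arrays (adjusted p = 0.144 without replicate 1, 0.0897 without replicate 2, 0.0575 without replicate 3) and without bone marrow replicate 2 (0.0577). The dimmer H19 probe was not well above background in mock lung and was so on all 3 treated arrays. Its log2 ratio of 0.02 did not pass (limma, adjusted p = 0.816), and the bound from its means was 1.01-fold higher in treated lung. The 2 probes thus give no common direction for H19. Meg3, the maternally expressed RNA of the Dlk1 domain, was at 0.10 ± 0.20 in lung (limma, adjusted p = 0.469).

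Of the paternally expressed genes besides Sgce, Plagl1 and Zrsr1 rose and Peg12 fell. Plagl1, the zinc finger transcription factor Zac1, had lung ratios of 1.01, 0.60 and 0.60 by its brightest probe, a mean of 0.74 ± 0.24 (limma, adjusted p = 0.00111). Zrsr1, a splicing protein related to U2af35, rose by 0.37 ± 0.05 (limma, adjusted p = 0.00286), with 3 arrays between 0.31 and 0.42. Peg12, a Frat family gene of the Snrpn domain, was at -0.84, -0.77 and -1.03, a mean of -0.88 ± 0.14 and a 1.84-fold fall (limma, adjusted p = 0.000181). Its second probe also fell, by 0.47 ± 0.18. Peg12 was lower in the treated channel also before dye normalization, with 136, 158 and 139 in mock lung and 94.6, 112 and 92.4 in treated lung.

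The neighbours of Peg12 in the Snrpn domain did not pass the test in lung. Magel2 was at 0.16 ± 0.02, Ndn (necdin) at 0.14 ± 0.06 and Snrpn (the spliceosomal protein SmN) at 0.20 ± 0.14, with adjusted p-values in limma of 0.125, 0.0947 and 0.0525. Snrpn was well above background on 2 arrays of treated lung and nowhere else. With background taken from negative control spots, Ndn and Snrpn passed as higher in lung, at 0.28 and 0.21 (limma, adjusted p = 0.00777 and 0.0264), and with scanner-processed signals they passed at 0.57 and 1.55 (limma, adjusted p = 0.00996 and 0.00259). Mest, an alpha/beta hydrolase, was not well above background in mock lung, and its log2 ratio of 0.13 did not pass (limma, adjusted p = 0.125). The bound from its means was 1.09-fold higher in treated lung. Impact, an inhibitor of the Gcn2 pathway, was at -0.01 ± 0.28. In the Snrpn domain Peg12 was the gene called in lung among the 4 kept ones, with Ndn and Snrpn dependent on the background correction.

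The isoform-dependent genes split. Blcap, which hosts the Nnat gene in an intron, rose in lung by 0.72 ± 0.25 (limma, adjusted p = 0.00282), while both Nnat probes were not well above background in any channel. Inpp5f, a phosphoinositide phosphatase, fell by 0.75 ± 0.14 (limma, adjusted p = 0.000295), with arrays at -0.84, -0.59 and -0.83. Its signal minus background was 210, 234 and 223 in mock lung and 168, 234 and 214 in treated lung, so the call is again a fall relative to other probes. Gnas, the stimulatory G protein alpha subunit and the brightest member, was at 0.26 ± 0.11 (limma, adjusted p = 0.0617), and passed without bone marrow replicate 1 (adjusted p = 0.0298). Grb10, which restrains insulin signalling, was at 0.13 ± 0.03 (limma, adjusted p = 0.212).

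In bone marrow 2 of the 22 genes rose and 1 fell, against 7.27% and 7.17% of all gene names. Over all 33 genes without the filter the counts were also 2 and 1, where 3837 of all 39429 probes were called in either direction. The maternal and paternal medians were both 0.12, beside 0.02 over all gene names. Inpp5f fell, as in lung, with arrays at -0.51, -0.53 and -0.43 and a mean of -0.49 ± 0.06 (limma, adjusted p = 0.00675). Its signal minus background was 265, 253 and 219 in mock and 223, 288 and 375 in treated bone marrow, and under median centring instead of loess its mean was -0.13 (limma, adjusted p = 0.718). Blcap rose, with arrays at 0.43, 0.48 and 0.87 and a mean of 0.59 ± 0.24 (limma, adjusted p = 0.0179). It missed the threshold without bone marrow replicate 2 (adjusted p = 0.0707) or replicate 3 (0.0788). Tspan32 rose with arrays at 0.39, 0.34 and 0.27, a mean of 0.33 ± 0.06 (limma, adjusted p = 0.0205). It missed the threshold without replicate 1, 2 or 3 of bone marrow (adjusted p = 0.0784, 0.103 and 0.0596). Ascl2 did not pass in bone marrow, at -0.22 ± 0.06. It passed without lung replicate 1 (limma, adjusted p = 0.0426) and with scanner-processed signals, at -0.58 (limma, adjusted p = 0.0471). Inpp5f, Blcap and Tspan32 had the same sign on every array of both tissues. This was common: of the 22 genes, 15 kept their sign on all bone marrow arrays and 20 on all lung arrays.

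Cdkn1c showed how far 1 bone marrow array could differ: its ratios there were -0.02, 0.18 and 0.93, a mean of 0.37 ± 0.50 that did not pass (limma, adjusted p = 0.164). Its treated signal minus background was 52.2 and 68.0 on replicates 1 and 2 and 272 on replicate 3. A smaller probe-level change was seen for a dimmer Plagl1 probe, which was not well above background in mock bone marrow and was so on all 3 treated arrays. Its bound was at least 1.29-fold higher in treated bone marrow, and its log2 ratio of 0.43 passed (limma, adjusted p = 0.0239). This bound sets the mean of the bright group against the higher of the dim probe's own signal and the lowest signal well above background on each array. It takes no account of the spread of arrays, and a p-value printed with a bound is that of the log2 ratio. The call was lost without bone marrow replicate 2 (adjusted p = 0.138) or replicate 3 (0.105). A dimmer Asb4 probe, likewise not well above background in mock bone marrow, was at least 1.18-fold higher in treated bone marrow (limma, adjusted p = 0.0354), and its call was lost without any 1 bone marrow array (adjusted p between 0.066 and 0.182) and without lung replicate 2 (0.0705) or lung replicate 3 (0.0609).

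The response differed between tissues for 8 of the 22 genes by the contrast of lung minus bone marrow in the same fit, 6 with a larger and 2 with a smaller log2 ratio in lung. Over all gene names 9.93% had a larger and 5.59% a smaller ratio in lung. The difference was 1.25 for Ppp1r9a, 1.18 for Sgce, 0.97 for Igf2r, 0.90 for Tspan32, 0.87 for Slc22a18 and 0.61 for Plagl1, and -0.83 for Peg12 and -0.38 for H19. The 4 differences with the smallest adjusted p-values in limma were those of Sgce (0.00142), Tspan32 (0.00193), Peg12 (0.00287) and Ppp1r9a (0.004). For Sgce, H19 and in part Ppp1r9a the bone marrow side is a probe at background, so their difference describes a gene read in lung and not in marrow.

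Single arrays decided the weaker of these calls. Those of H19 (adjusted p 0.0609 to 0.125) were lost without any 1 of the 6 arrays. Plagl1 missed the threshold without any 1 bone marrow array (0.0549 to 0.074), and Slc22a18 without any 1 bone marrow array or lung replicate 2 (0.0614 to 0.116). Cdkn1c passed without bone marrow replicate 3, with a difference of 0.90 (limma, adjusted p = 0.0123), and Ascl2 passed without lung replicate 1, with a difference of -0.44 (limma, adjusted p = 0.0272).

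**Figure D4:**
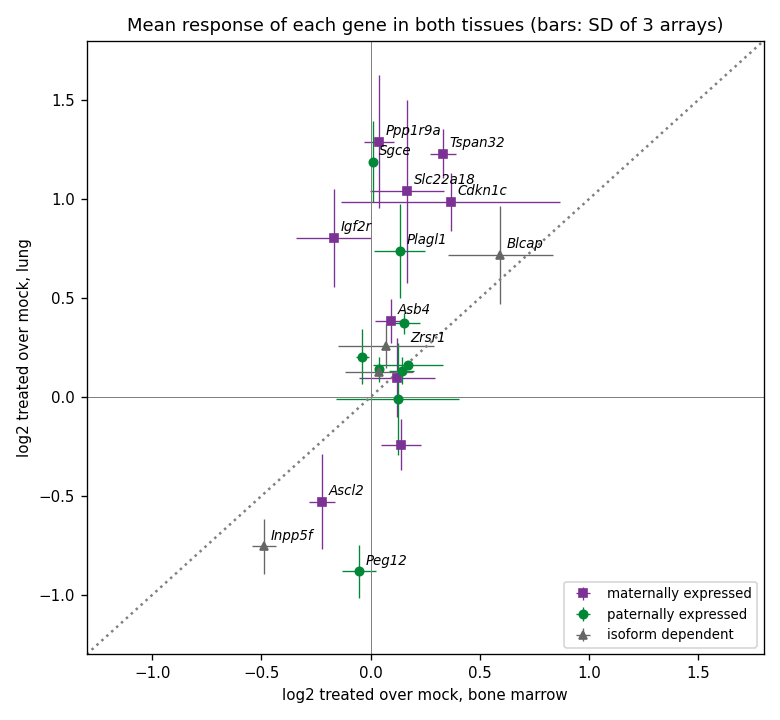
Mean log2 ratio of treated over mock in bone marrow (x axis) and lung (y axis) for the 22 genes, with SD of 3 arrays as bars; symbols give the allele class and the dotted line marks equal response. Igf2r has means of -0.17 in bone marrow and 0.80 in lung, Blcap lies close to the line with means of 0.59 and 0.72, and Peg12 lies below it with means of -0.05 and -0.88.

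Before treatment, the level of 12 of the 22 genes differed between mock cells of lung and bone marrow: 9 were higher and 3 lower in lung. Over all gene names 29.7% were higher and 36.4% lower, so differences between these tissues were common. Without the filter 10 of the 33 genes were higher and 3 lower, where 19832 of all 39429 probes were called in either direction. These are differences of log2 Cy3 level after normalization between arrays, and slide cannot be told apart from tissue.

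The genes lower in mock lung were Tspan32, Inpp5f and Magel2, a MAGE family protein, by 1.43, 0.74 and 0.47 on the log2 scale. Tspan32 had levels of 10.26, 10.39 and 10.27 in mock bone marrow and 8.69, 8.94 and 9.01 in mock lung, with no overlap (limma, adjusted p = 6.8e-06). Treatment raised the gene 2.34-fold in lung, where its mock level was lower than in bone marrow. The genes higher in mock lung were Impact, Gnas, Cdkn1c, Igf2r and Zrsr1, with differences from 0.21 to 1.48, and Sgce, H19, Meg3 and Asb4, which were not well above background in mock bone marrow. For these the bounds were at least 1.84-fold for Sgce, 1.42-fold for H19, 1.28-fold for Meg3 and 1.27-fold for Asb4. The call of Igf2r was lost without bone marrow replicate 1 or 3 or lung replicate 1 (adjusted p 0.06 to 0.0845), and that of Zrsr1 without any 1 array but bone marrow replicate 1 (0.0515 to 0.142). Single omissions also added calls: Ppp1r9a and Peg12 without lung replicate 1, Grb10 without bone marrow replicate 2, and Blcap and Plagl1 without lung replicate 3 (adjusted p 0.00367 to 0.0464).

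Several genes were read by more than 1 kept probe, and these did not always move together. Tspan32 rose by all 3 probes in lung, and Peg12 fell by both. For Plagl1 3 of 4 probes rose in lung, between 0.40 and 0.74, and the fourth was at 0.03 ± 0.05. The call of one of the dimmer probes was lost without lung replicate 3 (adjusted p = 0.0644). In mock lung over mock bone marrow 2 of the 4 probes were higher, by at least 1.90-fold and 1.70-fold since they were not well above background in mock bone marrow, and 1 was lower by 1.12 on the log2 scale. Asb4 rose in lung by 1 of its 2 probes. Impact had a brighter probe 1.48 higher and a dimmer one 0.96 lower in mock lung, and only the dimmer one fell with treatment in lung, by 0.33 ± 0.16 (limma, adjusted p = 0.0127), a call lost without lung replicate 1 (adjusted p = 0.0507). Gnas had 1 probe higher in mock lung by 0.83 and 1 lower by at least 1.28-fold, the latter not well above background in mock lung. A single value for Plagl1, Impact or Gnas therefore depends on the probe. Which exons or ends of the transcripts these probes read was not analysed here.

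**Figure D5:**
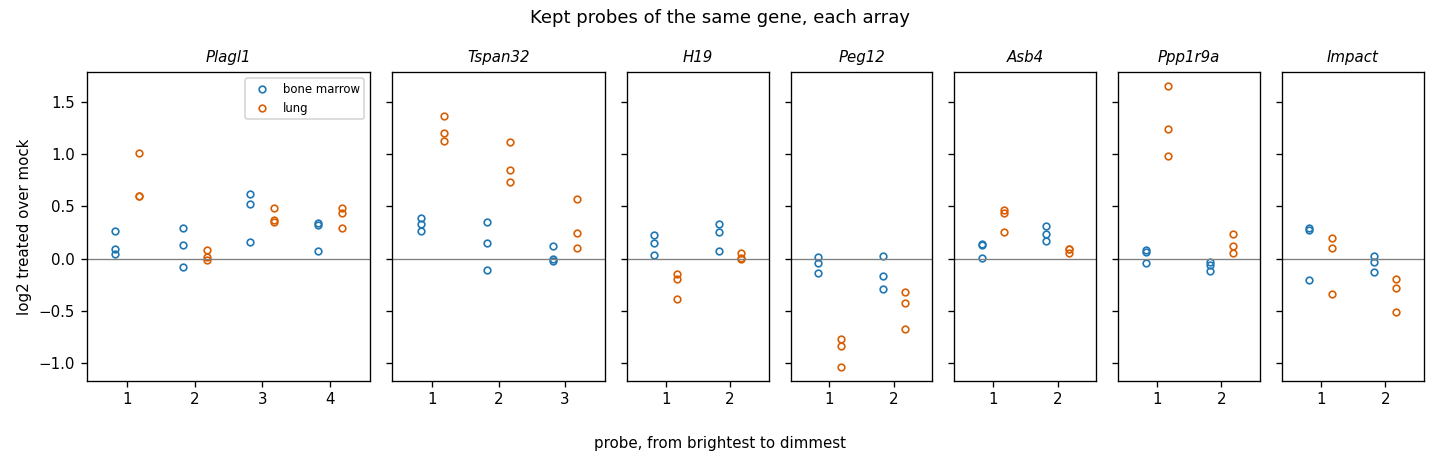
Log2 ratio of treated over mock on each array for every kept probe of 7 genes, from the brightest probe (1) to the dimmest, in bone marrow (blue) and lung (orange). The 3 Tspan32 probes have lung means of 1.23, 0.90 and 0.31, and the 4 Plagl1 probes have lung means between 0.03 and 0.74.

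Other imprinted genes, from a list of 38 with 30 kept, were read beside them. In lung 8 rose and 3 fell with a median of 0.13, where 20.1% of all gene names rose and 14.1% fell. In bone marrow 5 rose and 0 fell with a median of 0.12, where 7.27% rose and 7.17% fell. Among them Cd81, a tetraspanin near Tspan32 in the Kcnq1 domain, rose by 2.46 ± 0.26 in lung and 0.62 ± 0.11 in bone marrow. Pon3, a paraoxonase of the Peg10 domain, rose by 0.81 ± 0.11 in lung and 0.42 ± 0.06 in bone marrow. In limma their adjusted p-values were 1.62e-05 and 0.000181 in lung, and 0.0102 and 0.00896 in bone marrow. Kcnq1, named after its values were seen because the domain carries its name, rose in lung by 1.29 (limma, adjusted p = 0.000322). Kcnq1ot1 and Tssc4 of the same domain also rose in lung, by 0.50 and 0.60 (limma, adjusted p = 0.021 and 0.00194). Some other listed genes of these domains did not pass in lung (limma, adjusted p 0.0512 to 0.875). Casd1, Pon2 and Tfpi2 of the Peg10 domain were at 0.12, 0.25 and 0.01. Osbpl5, Nap1l4 and Th of the Kcnq1 domain were at 0.29, 0.14 and 0.15. These 6, and Kcnq1ot1 and Tssc4, were named after their values were seen.

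Of 25 genes that write, erase or guard imprints, all were kept, 3 rose and 3 fell in bone marrow, and 2 rose and 2 fell in lung. The shares of all gene names were 7.27% and 7.17% in bone marrow, and 20.1% and 14.1% in lung. Dnmt3l, a cofactor of de novo methylation in germ cells, rose in bone marrow by 0.89 ± 0.18 (limma, adjusted p = 0.00774). Dppa3, which protects maternal methylation in the early embryo, rose in lung by 0.53 ± 0.05 (limma, adjusted p = 0.00151). Arid4a, which takes part in control of the Snrpn domain, fell in both tissues, by 0.43 ± 0.16 in bone marrow and 0.71 ± 0.12 in lung (limma, adjusted p = 0.0155 and 0.000675). Zfp57, Trim28, Uhrf1 and Dnmt1 were in the list and were not among the genes called in either tissue.

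Markers of several other cell types also changed in lung, where 20.1% of all gene names rose and 14.1% fell. In bone marrow 7.27% of all gene names rose and 7.17% fell. Macrophage markers rose for 11 of 12 genes in lung, with a summed signal of 102800 to 126600 in mock and 173500 to 273900 in treated cells. Endothelial markers rose for 11 of 12, from 13430 to 18220 in mock to 29950 to 36950 in treated cells. Lung epithelial markers rose for 7 of 13 and fell for 1, from 19860 to 35070 up to 64400 to 97670, with 2 of the 13 not well above background in mock lung and 0 in treated lung. Fibroblast and stromal markers rose for 3 and fell for 2 of 12, at 13310 to 18020 in mock and 21700 to 23540 in treated cells. Granulocytic markers rose for 4 and fell for 0 of 9, from 6392 to 13140 up to 9653 to 21240. T and NK cell markers rose for 1 and fell for 4 of 10, at 5666 to 5945 in mock and 4317 to 5415 in treated cells. Erythroid markers rose for 2 and fell for 2 of 7, at 2003 to 3930 in mock and 1899 to 2388 in treated cells. B cell markers fell for 8 of 9, from 3970 to 5960 down to 2021 to 2341. Stem and progenitor markers rose for 6 and fell for 1 of 11 in lung, and in bone marrow rose for 3 of 11, from 7152 to 8502 up to 16750 to 25660. M-MDSC and monocyte markers were all well above background in both tissues, with 2 of 9 higher and 3 lower in treated lung. The part of these shifts in the changes of the imprinted genes was not tested.

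The promoters of the members held more CpG than promoters at large. RefSeq promoter windows of build GRCm38.p6, 250 bases before to 50 after the start, matched 29 of the 34 genes by symbol with 46 windows; H19, Peg10, Impact, Sgce and Cdkn1c were not in the table. The median number of CpG per window was 12.5 in members and 7 over all 32851 windows. Taking the richest window of each gene, the median ratio of observed to expected CpG was 0.62 in members and 0.41 over 27025 genes. Members have more windows per gene, which raises such a maximum. The letters TGCCGC, searched on both strands, were in 10 of 46 member windows (21.7%) and in 11.6% of all windows. They were in 7 of 25 windows of paternally and 2 of 13 of maternally expressed genes. The counts are a description of these windows and say nothing on binding.

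Printed next are the 250 bases before the start of 4 genes called by the contrast of lung minus bone marrow. For Ppp1r9a this contrast rests on a probe not well above background in mock bone marrow. The 4 genes were taken because they span the range of CpG content. The bases run 5′ to 3′ on the strand of the gene, with CpG in capitals. Ppp1r9a, shown by the richer of its 2 windows, has 35 CpG at chr6:4903061-4903310 on the plus strand, and Igf2r has 27 at chr17:12769707-12769956 on the minus strand. Peg12 has 8 at chr7:62464511-62464760 on the minus strand. Tspan32 has 1 at chr7:143004796-143005045 on the plus strand. None of these 4 stretches holds TGCCGC on either strand.
Ppp1r9a: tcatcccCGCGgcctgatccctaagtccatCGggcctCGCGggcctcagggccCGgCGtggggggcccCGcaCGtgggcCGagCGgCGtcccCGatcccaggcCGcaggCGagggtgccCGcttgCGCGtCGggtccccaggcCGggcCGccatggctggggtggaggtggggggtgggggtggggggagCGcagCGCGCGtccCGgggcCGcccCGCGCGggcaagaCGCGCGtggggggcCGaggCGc
Igf2r: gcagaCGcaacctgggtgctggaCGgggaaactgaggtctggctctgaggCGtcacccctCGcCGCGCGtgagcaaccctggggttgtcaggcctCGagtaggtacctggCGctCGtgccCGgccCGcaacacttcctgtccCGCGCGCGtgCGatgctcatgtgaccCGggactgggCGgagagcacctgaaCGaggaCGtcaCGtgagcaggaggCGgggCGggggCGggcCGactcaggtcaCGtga
Peg12: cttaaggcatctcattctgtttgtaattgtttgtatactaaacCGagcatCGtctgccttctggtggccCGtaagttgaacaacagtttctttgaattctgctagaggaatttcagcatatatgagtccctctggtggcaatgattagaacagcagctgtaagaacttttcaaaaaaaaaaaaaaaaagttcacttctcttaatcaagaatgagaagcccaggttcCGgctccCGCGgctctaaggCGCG
Tspan32: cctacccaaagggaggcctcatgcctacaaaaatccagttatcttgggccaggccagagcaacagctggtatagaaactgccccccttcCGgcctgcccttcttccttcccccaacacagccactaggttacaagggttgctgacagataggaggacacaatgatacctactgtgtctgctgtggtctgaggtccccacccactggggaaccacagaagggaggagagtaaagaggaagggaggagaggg
In lung Ppp1r9a rose 2.45-fold and Tspan32 2.34-fold. Since these genes were picked among called ones to span CpG content, they show nothing on how CpG content relates to the response.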

How the data were processed

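The deposited scanner tables give intensity per spot, written by Feature Extraction 10.7.3.1 per the file headers, and place the probes on mm9. The deposited matrices hold log2 ratios, made by the authors with limma per the submitters' processing notes, whose settings are not given there. The deposited log10 ratios of the scanner software were used only to check the direction. Mean signals and median local backgrounds were corrected with limma 3.58.1 in R 4.3.3 by normexp with an offset of 50, then by loess in each array, in which control spots had weight 0. Control spots and outlier spots were left out and spots of 1 probe averaged. Of 39429 probes 27695 were kept. One mean per tissue was fitted over the 6 arrays with 4 residual degrees of freedom and eBayes, and p-values were adjusted over all kept probes. Mock levels were compared on log2 Cy3 signals after loess and Aquantile. The fit was also run on simulated data with independent noise and a planted shift in lung. That run held no dye, slide or background effects, so it checks the code and not the calls given here.

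Signals differed between arrays. Mock spots were well above background for 49.9 to 62.8% of probes and treated spots for 55.1 to 69.5%, and no spot was saturated. After normexp, the Cy5 signal of the 153 negative control spots stood at 290.3 for replicate 1 of bone marrow and 137 for replicate 2 of lung, against 63.3 to 66.0 elsewhere. The small number of arrays limits the precision. Gene names are those of the scanner files.

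The members, gene lists and tests were chosen with earlier results of these data known. All members and all their probes were named, and of other lists up to 2 genes with the smallest p among those called in each tissue. Only Pon3, Cd81, Dnmt3l, Arid4a and Dppa3 of these are given with values, and cell type lists are given by counts. Replicate numbers were not taken to pair the tissues, since the correlations of same-numbered arrays were 0.01, 0.12 and 0.05. Alternatives were scanner-processed signals, background from negative control spots, median centring, scaling between arrays, the deposited matrices, no filter, 1 probe per gene name, outlier spots kept, separate fits, arrays left out in turn and a replicate block.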

Additional observations from a re-analysis of the deposited data

Results flagged for a closer look

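The response of 9 of the 35 kept member probes differed between tissues by a test of the difference itself, lung minus bone marrow in limma. Over all 27695 kept probes, 9.44% had a larger and 5.62% a smaller ratio in lung. The difference was larger in lung for the Ppp1r9a probe (1.25, adjusted p = 0.004), the Sgce probe (1.18, adjusted p = 0.00142), the Igf2r probe (0.97, adjusted p = 0.00642), the Slc22a18 probe (0.87, adjusted p = 0.0362), the brightest Plagl1 probe (0.61, adjusted p = 0.0235) and the Tspan32 probes (0.90, adjusted p = 0.00193, and 0.77, adjusted p = 0.0147). The second Tspan32 probe missed the threshold without bone marrow replicate 2 (adjusted p = 0.0574). It was smaller in lung for the brighter Peg12 probe (-0.83, adjusted p = 0.00287) and the brighter H19 probe (-0.38, adjusted p = 0.0426). Ppp1r9a, Sgce and H19 were not well above background in mock bone marrow on any array. Tissue and slide cannot be told apart. With 3 arrays per tissue, single arrays were not screened for outlying values.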

How the results depend on the processing

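Ppp1r9a, Sgce, Tspan32 and Plagl1, each by its brightest probe, were called higher in lung under all 16 alternatives, with log2 ratios of 1.11 to 2.03, 1.08 to 1.51, 1.14 to 1.44 and 0.60 to 1.06. The other lung calls kept their direction, and median centring in place of loess ended 10 of the 14. Median centring moved the median of all probes from 0.02 to 0.19 in bone marrow and from 0.01 to 0.11 in lung. Under it 0 probes and 0 member genes were called in bone marrow (limma; 4776 probes and 2 member genes at an unadjusted p under 0.05), 1084 probes and 4 member genes in lung, and 38 probes and 0 member genes for the difference (2667 and 6 unadjusted). In bone marrow scanner-processed signals gave 7930 probes and 8 member genes, and negative control background 7570 and 5, against 3809 and 3. In lung Ndn and Snrpn became calls under both and Mest under processed signals, where Cdkn1c was lost. With scanner-processed signals the difference for Sgce, dim in bone marrow, was 0.12 (adjusted p = 0.871), that of Plagl1 probe A_55_P1961968 reversed to -1.42, and the mock contrast of Mest reversed to -0.50 with processed Cy3 signals. The cause was not tested.

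The maternal median moved to 0.38 with processed signals and to -0.002 with median centring in bone marrow, and to 1.03 with median centring in lung. The paternal median moved to 0.34 with processed signals, 0.16 with negative control background and 0.048 with scaling in bone marrow, and in lung to 0.57 with processed signals and 0.21 with either negative control background or median centring. Leaving out single arrays gave 1 to 4 member genes and 1054 to 4988 probes in bone marrow, 13 to 15 and 6359 to 9619 in lung, 5 to 8 and 1770 to 3451 for the difference, and 10 to 13 and 16074 to 18207 for mock. The maternal median then ranged from 0.07 to 0.17 in bone marrow and 0.69 to 0.80 in lung, and the paternal median from 0.039 to 0.18 and 0.12 to 0.17.

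With the replicate number as a block, 3 member genes were called in bone marrow, 14 in lung, 7 for the difference (Slc22a18 lost, adjusted p = 0.0607) and 11 for mock, where Igf2r and Zrsr1 were lost and Ppp1r9a gained. The same-numbered arrays did not deviate together beyond 0.1 in every pair, so the numbers were not used as a pairing. Such correlations cannot exclude that same-numbered arrays share mice. Each tissue lay on 1 slide, so slide could not be fitted as a block. Genes not well above background have only bounds.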
